A study of Mus musculus with 171 samples.

Results

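Tdgf1 and 9 further genes of the Nodal pathway were followed in mouse embryos with and without Stat3, cell by cell and embryo by embryo. The 10 genes were Tdgf1, Nodal, Gdf3, Lefty1, Lefty2, Acvr1b, Acvr2b, Smad2, Smad7 and Furin. They were taken by name, as the rows of the count table whose Ensembl identifiers carry these symbols, and 10 of 10 were found among 49671 gene rows. All 10 were also among the 16521 genes that passed a filter on low counts over the 6 groups. Tdgf1 was chosen because it was among the strongest falls in Stat3-null inner cell mass in these same cells. Its inner cell mass values are therefore a description, and the question asked of the data was whether the ligands, receptors and inhibitors around it followed.

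Embryos were Stat3 -/- (MUT) or Stat3 +/+ (WT), and each sequenced sample was 1 cell. At E3.75 (embryonic day), 9 epiblast (EPI) cells came from 4 MUT embryos and 19 from 3 WT embryos. From the same embryos, 14 MUT and 10 WT cells were labelled primitive endoderm (PrE). At E3.5, 55 inner cell mass (ICM) cells came from 5 MUT embryos and 64 from 5 WT embryos. The stage is that of the sample titles, while a second label gives E3.5 for the E3.75 cells too. The labels give no strain, and they do not say whether embryos were littermates or how the null allele was made. Counts were summed per embryo and lineage into 24 sums of 17 embryos, because cells of 1 embryo are not replicates. A fall in such a sum can mean fewer cells with the RNA or less RNA per cell, and the values per cell are given where they bear on this.

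A cell held 163822 to 25095390 counts and a sum 8117787 to 122331780 counts. The EPI sum of MUT embryo 2 and the PrE sum of WT embryo 3 are each 1 cell. Stat3, the deleted gene, is given, as the other genes are, in CPM (counts scaled to a common library total), and had 0.0294 to 26.4 CPM in MUT EPI, against 84.5 to 161 in WT EPI. It had 9.82 to 21.4 CPM in MUT PrE, against 24.3 to 136 in WT PrE, and 0.130 to 12.3 CPM in MUT ICM, against 43.9 to 104 in WT ICM. The genotypes did not overlap in any of the 3 lineages, as the genotype labels say.

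The lineage labels were set against marker genes. All 9 EPI markers counted (the list without Tdgf1 and Gdf3) were higher, and all 12 PrE markers lower, in mean CPM in EPI than in PrE, in MUT and in WT alike. Single cells did not all follow, and those of WT PrE embryo 1 stood furthest from their label. Of its 3 cells, cell 7 had a trophectoderm marker sum of 10421 CPM and a PrE marker sum of 318 CPM. Cells 4 and 6 had PrE marker sums of 1973 and 2256 CPM beside EPI marker sums of 1931 and 1650 CPM, whereas the PrE marker sums of MUT PrE embryos were 4083 to 6663 CPM. Fold changes that use WT PrE are therefore given with and without this embryo, and counts over genes with it. Without it, edgeR called 0 of the 10 genes in each comparison that uses WT PrE. WT PrE embryo 2, which was kept, held mixed cells too. Its cells 2 and 12 had EPI marker sums of 1060 and 1955 CPM beside PrE marker sums of 2754 and 3883 CPM. In MUT, EPI embryo 1 cell 1 had a PrE marker sum of 977 CPM and a trophectoderm marker sum of 920 CPM beside an EPI marker sum of 1553 CPM, and EPI embryo 4 cell 4 a PrE marker sum of 898 CPM. MUT PrE embryo 2 cell 3 had a trophectoderm marker sum of 1395 CPM beside a PrE marker sum of 6195 CPM.

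NODAL and GDF3 are ligands of the TGF-beta family. They signal through type II receptors such as ACVR2B and type I receptors such as ACVR1B, and the product of Tdgf1 (Cripto) is the membrane-anchored co-receptor that they need. The receptors phosphorylate SMAD2, which enters the nucleus and switches on target genes, among them Nodal itself and the secreted inhibitors Lefty1 and Lefty2. SMAD7 blocks the receptors from inside the cell, and FURIN cleaves the NODAL precursor. The pathway is best known for patterning the epiblast around gastrulation, and Tdgf1 and Gdf3 are also widely used as markers of pluripotent cells.

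The promoter of Tdgf1 is shown because Tdgf1 is the gene the results turn on and the embryos lack a transcription factor. It is the RefSeq window from 250 bases before to 50 after the start site (GRCm38.p6, chr9:110946109-110946408, minus strand, 5' to 3'), with matches to GGGNGTGG in capitals.
Tdgf1 promoter: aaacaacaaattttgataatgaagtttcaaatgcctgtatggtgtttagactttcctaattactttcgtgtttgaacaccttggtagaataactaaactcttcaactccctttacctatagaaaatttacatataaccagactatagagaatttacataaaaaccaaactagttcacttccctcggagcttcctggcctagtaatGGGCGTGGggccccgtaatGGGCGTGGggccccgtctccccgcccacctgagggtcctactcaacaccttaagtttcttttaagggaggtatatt
GGGNGTGG is a form of the motif of Krüppel-like factors. It was found at 45 and 26 bases before the start site, within a repeated stretch, and on either strand 17.6% of the 32851 promoters searched hold it. The motif was picked after the sequence had been read. The STAT motif TTCNNNGAA, held by 8.30% of those promoters, the FOXH1 motif AATCCACA (0.855%) and the SMAD motif GTCTAGAC (0.213%) were not in this window on either strand, nor in the windows of Nodal, Acvr1b, Acvr2b and Furin. These motifs do not overlap one another in the Tdgf1 window.

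In the ICM at E3.5, Tdgf1 was lower in MUT than in WT in every embryo, and no other gene of the 10 separated the genotypes. Tdgf1 had 235, 93.4, 160, 531 and 214 CPM in MUT embryos 2, 10, 18, 23 and 24. It had 1391, 2043, 1994, 1578 and 1558 CPM in WT embryos 13, 16, 20, 21 and 22. The highest MUT embryo thus lay well under the lowest WT embryo. The means were 247 ± 168 CPM in MUT and 1713 ± 289 CPM in WT (SD, n = 5 each), and the fitted log2 fold change was -2.80 (SE 0.44), given without a p because the gene was chosen on this contrast.

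The difference was spread over the cells. Per cell, the median was 93.5 CPM in MUT ICM and 1421 CPM in WT ICM. All cells of both genotypes had counts of Tdgf1, and 29 of 55 MUT cells, against 3 of 64 WT cells, were under 100 CPM. The highest MUT cell had 709 CPM, under 788 CPM, the lower quartile of WT cells. The title letters D to H, of unknown meaning, each hold cells of both genotypes. Within them, the means of embryo means were 66.9 to 286 CPM in MUT and 1098 to 1609 CPM in WT, with MUT lower in each of the 5. The same embryos recur in the letters, so these are not 5 separate comparisons, and letter G holds only 3 WT cells. Like the other ICM values of Tdgf1, they are a description.

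**Figure D1:**
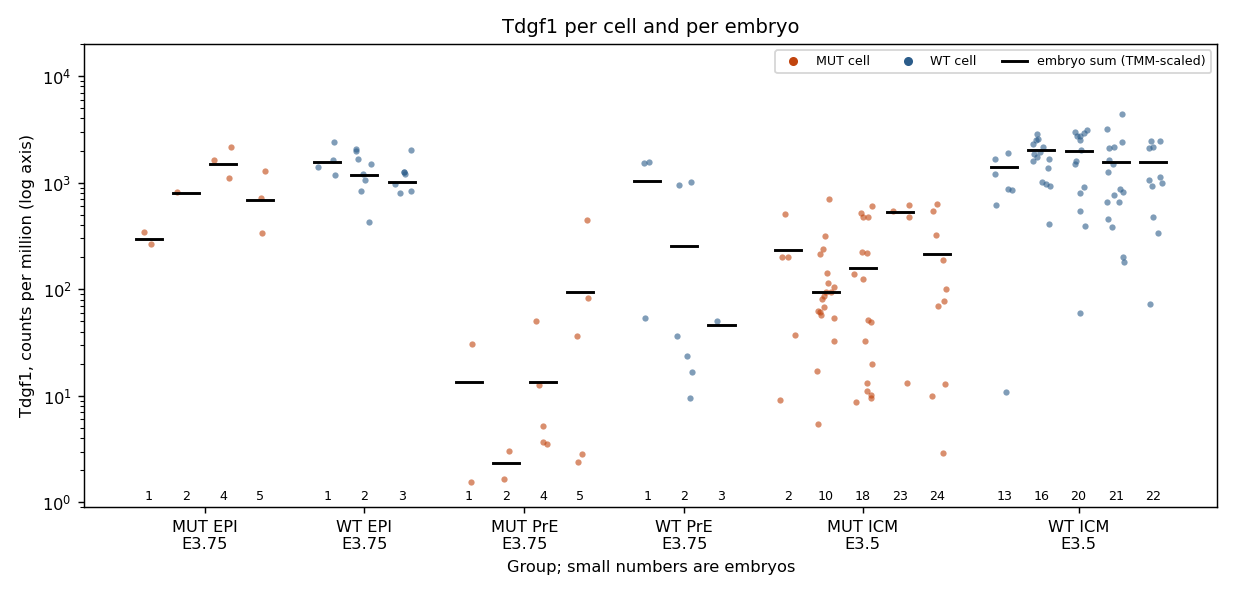
Tdgf1 in CPM on a log axis, for each cell (points) and each embryo sum (black bars), by group with MUT left of WT; small numbers name the embryos. MUT ICM embryos lie between 93.4 and 531 CPM and WT ICM embryos between 1391 and 2043 CPM, while the EPI groups overlap.

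Means of lineage markers also differed between the genotypes in the ICM, while the marker sums overlapped. Of the 12 PrE markers, 9 had a higher mean in MUT, and of the 9 EPI markers, 7 had a lower one. The PrE marker sum was 224 to 4273 CPM in MUT and 449 to 1323 CPM in WT, and the EPI marker sum was 738 to 1435 CPM in MUT and 1075 to 2298 CPM in WT. MUT embryo 10, lowest in Tdgf1, had the highest PrE marker sum, and MUT embryo 23, highest in Tdgf1, had the lowest, 224 CPM. Embryo 23, with 4 cells and the smallest sum of counts (8117787), had 531 CPM of Tdgf1. The trophectoderm marker sum was 180 to 550 CPM in MUT and 247 to 503 CPM in WT, and median depth was 3404703 counts per MUT cell and 5064704.5 per WT cell. The part of lineage markers and depth in the result was not tested.

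Of the other 9 genes, the ligand Gdf3 and the inhibitor Lefty2 came nearest to Tdgf1, and neither passed the test. Gdf3 had 90.4, 29.7, 121, 158 and 222 CPM in MUT embryos 2, 10, 18, 23 and 24, against 188, 297, 348, 211 and 382 CPM in WT embryos 13, 16, 20, 21 and 22. Only MUT embryo 24 reached the WT range. This gave a log2 fold change of -1.20 (SE 0.47, edgeR adjusted p = 0.727). Lefty2 had 4.66, 4.51, 3.99, 0.130 and 35.8 CPM in the MUT embryos, against 112, 0.164, 93.6, 186 and 117 CPM in the WT embryos. WT embryo 16 alone lay within the MUT range. Lefty2 had a log2 fold change of -3.38 (SE 1.28, edgeR adjusted p = 0.727), -4.92 without MUT embryo 24, -4.70 with embryo sex in the fit and -2.08 by limma-trend. Lefty1, the near copy of Lefty2, had 0.0796 to 18.3 CPM in MUT and 0 to 23.8 CPM in WT, so the genotypes overlapped throughout.

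Lefty2 was carried by a minority of cells. It reached 10 CPM in 9 of 55 MUT ICM cells and 25 of 64 WT ICM cells. In MUT, 2 cells held more than 50% of the Lefty2 CPM of the group, and in WT 4 cells did. Nodal, the ligand that gives the pathway its name, was close to silent in the ICM. It had 0, 0.458, 4.66, 0 and 0.216 CPM in the MUT embryos and 2.79, 0.00967, 3.17, 2.70 and 0 CPM in the WT embryos, and reached 10 CPM in 3 of 55 MUT and 3 of 64 WT cells. A sum of 0 allows up to 0.390 CPM in the MUT embryos and 0.0624 CPM in the WT embryo, from 3 counts per sum.

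The receptors among the 10 genes were also near the floor in most embryos. Acvr1b, the type I receptor, had 0 to 13.8 CPM in MUT ICM and 0 to 9.87 CPM in WT ICM. Acvr2b, the type II receptor, had 0 to 32.6 CPM in MUT and 0.0416 to 7.94 CPM in WT. Smad2, the signal transducer, had 38.6 to 129 CPM in MUT, against 23.4 to 96.5 CPM in WT, a log2 fold change of 0.88 (SE 0.54, edgeR adjusted p = 0.818). Smad7 had 0 to 8.90 CPM in MUT and 3.37 to 19.6 CPM in WT, and Furin 3.61 to 18.8 CPM in MUT and 4.47 to 17.3 CPM in WT. The genotypes overlapped for each of these. Receptors outside the 10 genes were not all so low, as Acvr2a averaged 20.5 CPM in MUT ICM and 7.12 CPM in WT ICM.

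Counted over the 10 genes, edgeR's quasi-likelihood test with Benjamini-Hochberg adjustment called 0 in the ICM, where it called 0% of 12270 genes. At an unadjusted p under 0.05, 815 of those genes and 3 of the 10 (Tdgf1, Gdf3 and Lefty2) passed. DESeq2 called 0.848% of genes (104) and limma-trend 0.0163% (2), and each counted Tdgf1, the gene chosen on this contrast, as its 1 call among the 10. Embryo sums did not overlap between genotypes for Tdgf1 alone of the 10, against 1.31% of 16521 genes. The median log2 fold change was -0.67 over the 10 genes and -0.05 over all genes tested. This median and the counts by unadjusted p and by overlap include Tdgf1, chosen on this contrast. They are therefore a description and no test of a shift of the 10 genes.

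**Figure D2:**
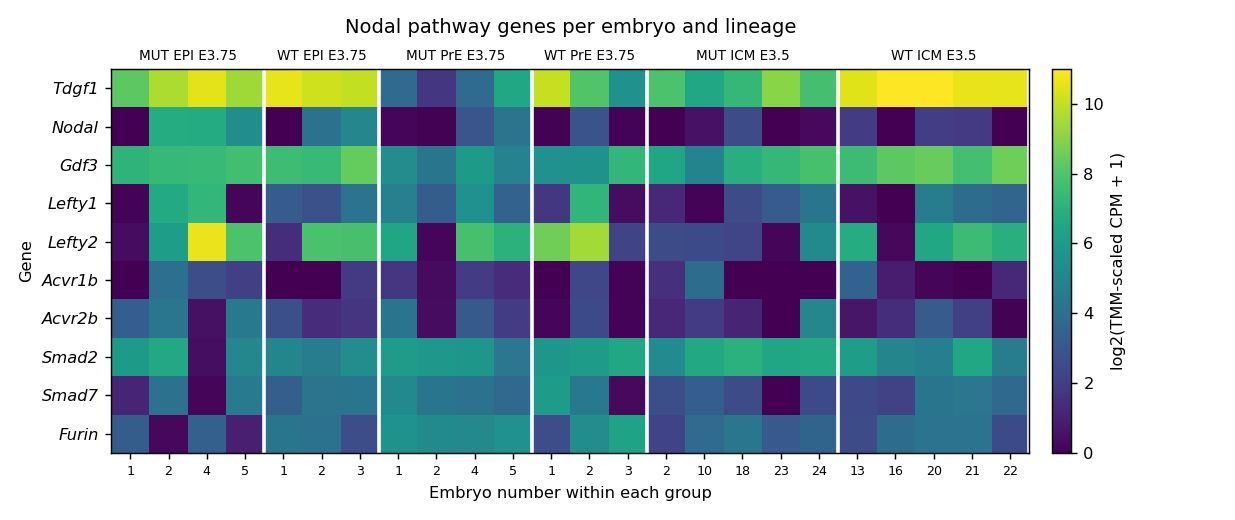
Levels of the 10 genes as log2(CPM + 1) (colour) in each of the 24 embryo sums, grouped by lineage with MUT left of WT. Tdgf1 is darker in each MUT ICM embryo than in each WT ICM embryo, and Nodal is above 10 CPM in 3 of 4 MUT EPI and 2 of 3 WT EPI embryos and in 1 PrE embryo.

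In EPI at E3.75, no gene of the 10 separated the genotypes, Tdgf1 included. Tdgf1 had 298, 808, 1503 and 692 CPM in MUT embryos 1, 2, 4 and 5, against 1546, 1190 and 1022 CPM in WT embryos 1, 2 and 3. MUT embryo 4 lay within the WT range and the other 3 MUT embryos below it. The log2 fold change was -0.60 (SE 0.46, 95% interval -1.51 to 0.31, edgeR adjusted p = 0.9999). No EPI cell was under 100 CPM, and the median cell had 819 CPM in MUT and 1260 CPM in WT. Without MUT embryo 1, which holds the cell of mixed markers, the log2 fold change was -0.34, and without MUT embryo 4 it was -1.06.

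Markers of other lineages differed between EPI embryos and did not follow Tdgf1 throughout. In means, 8 of 12 PrE and 5 of 9 EPI markers were higher in MUT than in WT, and 6 of 9 trophectoderm markers were lower. In WT, embryo 1 had the most Tdgf1 and also the highest PrE (411 CPM) and trophectoderm (275 CPM) marker sums. MUT embryo 1, lowest in Tdgf1, had the highest PrE marker sum of the EPI embryos (553 CPM), against 167 to 274 CPM in the other MUT embryos and 163 to 411 CPM in WT. The trophectoderm marker sum was 495 CPM in MUT embryo 1, 658 in MUT embryo 2 and 116 to 154 in MUT embryos 4 and 5, against 85.0 to 275 CPM in WT. The EPI marker sum was 1702 to 2257 CPM in MUT and 2262 to 2920 CPM in WT. The part of these markers in the result was not tested.

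Title letters and sex limit this comparison. All 4 MUT embryos were male by Y-linked reads and 1 of the 3 WT embryos was, and letter B holds only MUT and letter C only WT embryos. Letter A holds both, and within it Tdgf1 had 1503 and 692 CPM in the MUT embryos and 1022 CPM in the WT embryo. With the letter in the fit the log2 fold change became 0.10, so the direction turned, and with embryo sex it was -0.31.

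Among the ligands, Nodal had 0, 110, 108 and 42.5 CPM in MUT EPI embryos 1, 2, 4 and 5, against 0, 16.4 and 33.4 CPM in WT EPI embryos 1, 2 and 3. Embryo 1 of each genotype was without Nodal, and the other 3 MUT embryos were above both remaining WT embryos. The log2 fold change was 1.98 (SE 2.16, edgeR adjusted p = 0.9999), 1.39 without WT embryo 1 and 2.99 without WT embryo 3. Gdf3 had 143, 163, 175 and 202 CPM in MUT, against 193, 167 and 338 CPM in WT, with a log2 fold change of -0.45 (SE 0.28, edgeR adjusted p = 0.9999), and -0.08 without WT embryo 3. Its ranges overlapped.

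Among the inhibitors, Lefty2 had 0.304, 69.6, 1646 and 234 CPM in MUT EPI, against 1.74, 229 and 224 CPM in WT EPI. MUT embryo 4 stood far above every other sum of this gene. The log2 fold change was 1.69 (SE 2.03, edgeR adjusted p = 0.9999), and -0.58 without that embryo. In embryo 1 of each genotype, where Nodal was without a count, Lefty2 was under 2 CPM as well. That did not hold throughout the ICM. WT ICM embryo 22 was also without a Nodal count, and its Lefty2 was above the WT ICM median of 112 CPM. MUT ICM embryos 2 and 23 were without a Nodal count too, and no MUT ICM embryo had more than 35.8 CPM of Lefty2. Lefty1 had 0.0868, 105, 156 and 0.118 CPM in MUT EPI, against 8.12, 5.55 and 17.1 CPM in WT EPI. The MUT embryos lay on both sides of the WT range.

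The test called 0 of the 10 genes in EPI, where it called 0% of 12298 genes. At an unadjusted p under 0.05, 570 genes and 0 of the 10 passed, and DESeq2 called 1.52% of genes (187) and limma-trend 0%, none of them among the 10. No gene of the 10 was without overlap, against 7.35% of 16521 genes. The median log2 fold change was 1.14 over the 10 genes and 0.04 over all genes tested.

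In cells labelled PrE, Tdgf1 was low in MUT and uneven in WT. It had 13.4, 2.35, 13.3 and 94.4 CPM in MUT embryos 1, 2, 4 and 5, against 1035, 255 and 46.3 CPM in WT embryos 1, 2 and 3. MUT embryo 5 was above WT embryo 3, so the genotypes overlapped. Its log2 fold change was -3.87 (SE 1.35, edgeR adjusted p = 0.975). The WT level rested on 4 of 10 cells: cells 4 and 6 of embryo 1 with 1556 and 1543 CPM, and cells 2 and 12 of embryo 2 with 958 and 1023 CPM. Those 4 had PrE marker sums of 1973 to 3883 CPM, whereas the 5 other WT cells of embryos 2 and 3 had 4491 to 7339 CPM and 9.51 to 49.95 CPM of Tdgf1. Without WT embryo 1, but still with cells 2 and 12 of embryo 2, the log2 fold change was -2.29 (edgeR adjusted p = 0.999). Without MUT embryo 5 it was -5.53. With embryo sex in the fit it was -0.63, and with the title letter 0.17, so the direction turned. Within letter A, Tdgf1 had 13.3 and 94.4 CPM in the MUT embryos and 46.3 CPM in the WT embryo.

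**Figure D3:**
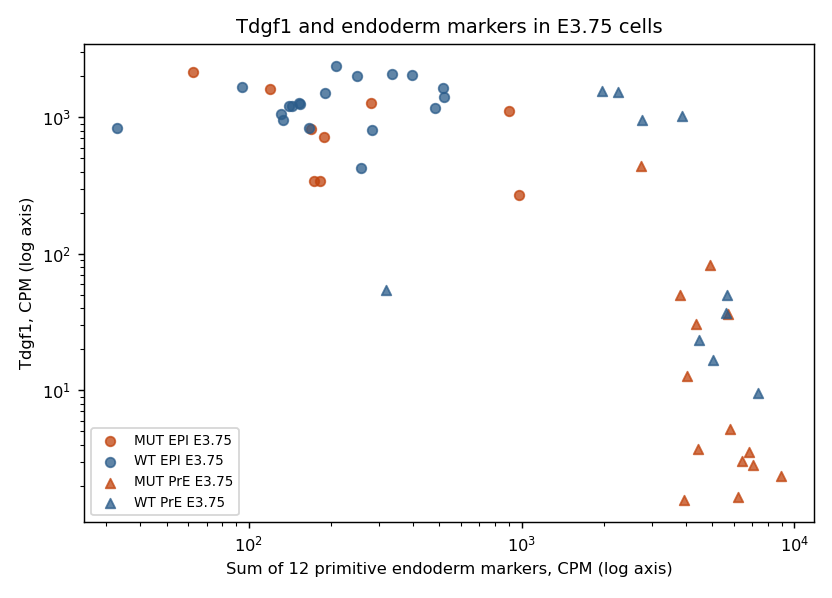
Tdgf1 against the sum of 12 PrE markers in each E3.75 cell, both in CPM on log axes; circles are EPI and triangles PrE cells. Of the PrE cells, 4 WT cells and 1 MUT cell (442 CPM) have Tdgf1 above 100 CPM, and these 5 lie at PrE marker sums of 1973 to 3883 CPM. The other PrE cells lie at 3819 CPM or more, apart from WT embryo 1 cell 7 at 318 CPM.

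Between the genotypes in PrE, the other 9 genes did not pass the test. Gdf3 had 41.6, 18.5, 62.0 and 28.8 CPM in MUT PrE, against 46.6, 49.6 and 154 CPM in WT PrE, with a log2 fold change of -1.18 (SE 0.59, edgeR adjusted p = 0.99999). The ranges overlapped through MUT embryo 4, and the value was -1.46 without WT embryo 1 and -0.35 without WT embryo 3. Lefty2 had 87.9, 0.0961, 219 and 131 CPM in MUT PrE, against 386, 709 and 3.82 CPM in WT PrE, and Nodal stayed at 18.1 CPM or less in every PrE sum. The test called 0 of the 10 genes, where it called 0% of 11765 genes. At an unadjusted p under 0.05, 545 genes and 1 of the 10 (Tdgf1) passed, and DESeq2 called 1.33% of genes (157) and limma-trend 0%, none of them among the 10. No gene of the 10 was without overlap, against 5.4% of 16521 genes.

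Between lineages of the same embryos, Gdf3 was higher in EPI than in PrE in MUT, and was the 1 gene of the 10 that the test called; it called 1.65% of 10698 genes (177) in this comparison. Gdf3 averaged 171 ± 24.6 CPM in MUT EPI and 37.7 ± 18.7 CPM in MUT PrE (SD, n = 4 each). All 4 EPI sums were above all 4 PrE sums. The log2 fold change was 2.20 (SE 0.38, edgeR adjusted p = 0.0230). The call did not hold with the embryo as a replicate block (adjusted p = 0.0877) or without MUT embryo 1, 2, 4 or 5 (adjusted p = 0.133, 0.0603, 0.0519 and 0.175).

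Tdgf1 averaged 826 ± 502 CPM in MUT EPI and 30.9 ± 42.7 CPM in MUT PrE (SD, n = 4 each), and all EPI sums were above all PrE sums. Its log2 fold change of 4.76 (SE 1.07) missed the threshold (edgeR adjusted p = 0.0704). DESeq2 gave an adjusted p of 3.94e-04 and limma-trend 7.27e-04, and without MUT embryo 5 the edgeR value was 0.0369. Without MUT embryo 1, 2 or 4 it was 0.214, 0.142 and 0.261, with the embryo as a replicate block 0.132, and with no filter 0.141. Furin, which processes the ligand, had lower values in EPI, with 8.51, 0.191, 9.48 and 0.940 CPM in MUT EPI embryos 1, 2, 4 and 5, against 49.4, 36.8, 34.7 and 46.2 CPM in their PrE. The sums did not overlap, and the log2 fold change was -3.11 (SE 1.11, edgeR adjusted p = 0.308). DESeq2 called 3 of the 10 genes (Tdgf1, Gdf3 and Furin) and 5.9% of genes, and limma-trend the same 3 and 3% of genes. Without overlap were Tdgf1, Gdf3 and Furin of the 10, against 7.14% of 16521 genes.

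In WT the same genes had the same order without a call. Gdf3 averaged 232 ± 92.4 CPM in WT EPI and 83.4 ± 61.1 CPM in WT PrE (SD, n = 3 each), a log2 fold change of 1.48 (SE 0.57, edgeR adjusted p = 0.481), and 1.30 without embryo 1. Tdgf1 averaged 1252 ± 268 CPM in WT EPI and 445 ± 521 CPM in WT PrE, and WT PrE embryo 1, at 1035 CPM, exceeded WT EPI embryo 3. Tdgf1 had a log2 fold change of 1.50 (SE 0.95, edgeR adjusted p = 0.832), and 2.88 (adjusted p = 0.335) without embryo 1. Furin averaged 13.1 ± 7.09 CPM in WT EPI and 42.5 ± 38.2 CPM in WT PrE, a log2 fold change of -1.70 (SE 1.03, edgeR adjusted p = 0.802), -2.53 without embryo 1 and -0.39 without embryo 3. Smad2 had 31.9, 23.9 and 40.4 CPM in WT EPI, against 55.2, 67.0 and 95.1 CPM in WT PrE. Its sums did not overlap, and the log2 fold change was -1.17 (SE 0.38, edgeR adjusted p = 0.353), and -1.34 without embryo 1.

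In this WT comparison edgeR called 0 of the 9 genes of the list that passed its filter (Acvr1b did not), and 0.0314% of 12733 genes. At an unadjusted p under 0.05, 1190 genes and 2 of the 9 (Gdf3 and Smad2) passed, and DESeq2 called 5.71% of genes (727) and limma-trend 0.055% (7), none of them among the 9. Without overlap were Gdf3 and Smad2 of the 10, against 15.1% of 16521 genes. The lineage difference itself was not shown to differ between MUT and WT. For Tdgf1 that difference of log2 fold changes was 3.21 (SE 1.47, edgeR adjusted p = 0.905), 1.83 without WT embryo 1 and 4.98 without MUT embryo 5. For Gdf3 it was 0.70 (SE 0.66, adjusted p = 0.99997), 0.87 without WT embryo 1 and 0.24 without WT embryo 3. The test of it called 0 of the 10 genes and 0% of 14220 genes, with 783 genes and 1 of the 10 at an unadjusted p under 0.05. DESeq2 called 2.34% of genes (333) and limma-trend 0%, none of the 10 among them.

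Between the stages, Nodal had higher means in E3.75 EPI than in E3.5 ICM, and Lefty2 in both E3.75 lineages, without an edgeR call. E3.5 cells have title letters D to H and E3.75 cells A to C, so stage and letter cannot be told apart. Median depth per cell was 3404703 counts in MUT ICM and 5064704.5 in WT ICM, against 10407966 to 11168799 in the E3.75 groups. The part of depth in the stage differences was not tested. In MUT, Nodal averaged 65.1 ± 53.6 CPM in E3.75 EPI (SD, n = 4) and 1.07 ± 2.02 CPM in E3.5 ICM (SD, n = 5), a log2 fold change of 5.88 (SE 1.91, edgeR adjusted p = 0.290). In WT it averaged 16.6 ± 16.7 CPM in EPI (SD, n = 3) and 1.73 ± 1.59 CPM in ICM (SD, n = 5), a log2 fold change of 3.23 (SE 2.12, edgeR adjusted p = 0.566). EPI embryo 1 of each genotype, with a Nodal count of 0, kept the stages overlapping. By cells, Nodal reached 10 CPM in 5 of 9 MUT EPI and 12 of 19 WT EPI cells, against 3 of 55 MUT ICM and 3 of 64 WT ICM cells.

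Lefty2 averaged 487 ± 778 CPM in MUT EPI and 9.81 ± 14.6 CPM in MUT ICM, a log2 fold change of 5.61 (SE 1.66, edgeR adjusted p = 0.208), and 3.35 without MUT EPI embryo 4. In WT it averaged 152 ± 130 CPM in EPI and 102 ± 66.7 CPM in ICM, a log2 fold change of 0.57 (SE 1.45, edgeR adjusted p = 0.919). In PrE, Lefty2 averaged 110 ± 91.2 CPM in MUT (SD, n = 4), a log2 fold change of 3.49 over ICM (SE 1.44, edgeR adjusted p = 0.436), and 4.997 without MUT ICM embryo 24. It averaged 366 ± 353 CPM in WT PrE (SD, n = 3), more than in WT EPI, a log2 fold change of 1.83 over ICM (SE 1.42, edgeR adjusted p = 0.617), 1.80 without WT PrE embryo 1 and 0.91 without WT PrE embryo 2.

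Lefty2 at 10 CPM was counted in the cells that had Nodal at 10 CPM, and in all cells of the group. In EPI it was found in 5 of 5 MUT cells with Nodal, where 7 of all 9 cells had it, and in 7 of 12 WT cells with Nodal, where 10 of all 19 had it. In PrE it was found in 3 of 3 MUT cells with Nodal (11 of all 14) and 1 of 1 WT cell (7 of all 10). In the ICM it was found in 1 of 3 MUT cells with Nodal (9 of all 55) and 3 of 3 WT cells (25 of all 64). These are counts over cells that share embryos, not a test.

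**Figure D4:**
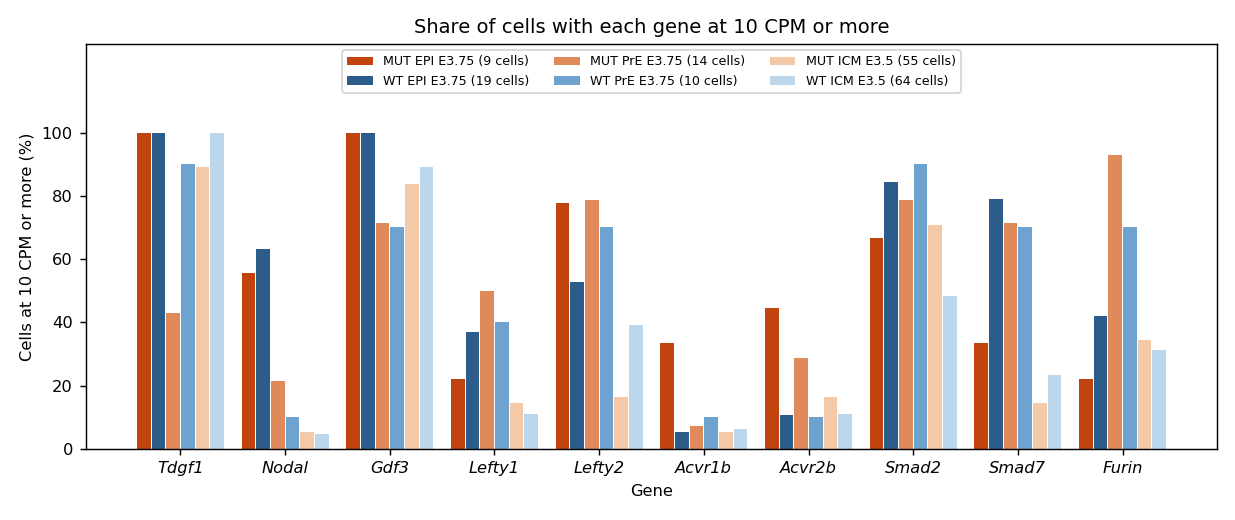
Share of cells (percent) in which each gene reached 10 CPM, as bars for the 6 groups with MUT left of WT. Tdgf1 and Gdf3 reach it in most EPI and ICM cells, Nodal in 5.45% of MUT ICM and 4.69% of WT ICM cells but 55.6% of MUT EPI and 63.2% of WT EPI cells, and Acvr1b in 33.3% of cells at most.

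Tdgf1 had stage differences of opposite sign in the genotypes by edgeR and DESeq2, but not by limma-trend, which gave 0.38 in WT. By limma-trend the median of all genes was 0.68 in that WT comparison, above the value of Tdgf1. Tdgf1 had 826 ± 502 CPM in MUT EPI and 247 ± 168 CPM in MUT ICM, a log2 fold change of 1.72 (SE 0.55), against 1252 ± 268 CPM in WT EPI and 1713 ± 289 CPM in WT ICM, a log2 fold change of -0.44 (SE 0.22). The difference of these was 2.18 (SE 0.66). No p is given for these values, since they contain the ICM values on which the gene was chosen. Gdf3 averaged 171 ± 24.6 CPM in MUT EPI and 124 ± 72.1 CPM in MUT ICM (log2 fold change 0.44, SE 0.50, edgeR adjusted p = 0.918), against 232 ± 92.4 CPM in WT EPI and 285 ± 84.4 CPM in WT ICM (log2 fold change -0.28, SE 0.33, edgeR adjusted p = 0.789). By limma-trend these were 2.11 in MUT and 1.04 in WT, where the median of all genes was 0.65 in MUT and 0.68 in WT.

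Of E3.75 PrE against E3.5 ICM, Tdgf1 and Gdf3 had lower means in PrE in both genotypes, and Furin a higher one, without an edgeR call. For Tdgf1 the log2 fold change was -2.99 (SE 0.92) in MUT and -1.95 (SE 0.74) in WT, and -3.49 in WT without WT PrE embryo 1. That of Gdf3 was -1.71 (SE 0.58, edgeR adjusted p = 0.291) in MUT and -1.73 (SE 0.50, adjusted p = 0.168) in WT, where it was -1.44 without WT PrE embryo 1 and -2.57 without WT PrE embryo 3. Furin averaged 41.8 ± 7.15 CPM in MUT PrE and 10.8 ± 5.83 CPM in MUT ICM, a log2 fold change of 1.94 (SE 0.70, edgeR adjusted p = 0.328), and 42.5 ± 38.2 CPM in WT PrE and 11.5 ± 6.35 CPM in WT ICM, a log2 fold change of 1.93 (SE 0.93, adjusted p = 0.369), 2.45 without WT PrE embryo 1 and 1.01 without WT PrE embryo 3. Smad7, the inhibitor inside the cell, had 37.9, 18.4, 16.3 and 12.7 CPM in the MUT PrE embryos and at most 8.90 CPM in a MUT ICM embryo, a log2 fold change of 2.16 (SE 1.20, edgeR adjusted p = 0.663). Without overlap were Smad7 and Furin in MUT, against 5.51% of 16521 genes, and Tdgf1 and Gdf3 in WT, against 12.1%. Tdgf1 was chosen on the ICM values, so its part in this count is a description. Of EPI against ICM, 0 of the 10 were without overlap, against 3.93% of genes in MUT and 13.5% in WT.

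edgeR called 0 of the 10 genes in each of the 4 stage comparisons. For EPI against ICM it called 0.0682% of 11733 genes in MUT and 0.308% of 13972 in WT, and for PrE against ICM 0.507% of 12040 in MUT and 0.349% of 13190 in WT. At an unadjusted p under 0.05, 948, 1966, 1139 and 1954 genes passed in that order, and 3, 0, 4 and 2 of the 10, with Tdgf1, chosen on the ICM values, among them in the first and the last pair. In the same order DESeq2 called 1, 0, 2 and 1 of the 10, where it called 3.42%, 7.65%, 4.63% and 9.08% of genes. These were Lefty2 in MUT EPI, Tdgf1 and Furin in MUT PrE and Gdf3 in WT PrE. limma-trend called 2 of the 10 in each, where it called 1.9%, 29%, 5.23% and 15.7% of genes. These were Tdgf1 and Gdf3, Nodal and Smad7, Tdgf1 and Furin, and Tdgf1 and Smad2. For the genotype difference of EPI against ICM edgeR called 0 of the 10 and 0% of 15756 genes. At an unadjusted p under 0.05 were 1458 genes and 1 of the 10. That 1 was Tdgf1, chosen on the ICM values that this comparison contains. DESeq2 called 3.18% of genes (501) and limma-trend 0%, none of the 10 among them.

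The rest of the pathway was read from a list of 62 genes that includes the 10, of which 52 passed the filter over the 6 groups. In the ICM, 0 of 41 tested list genes were called, and 15 were higher and 26 lower in MUT. Against 815 of all 12270 genes, 8 of these 41 had an unadjusted p under 0.05. Their median log2 fold change was -0.45, against -0.05 over all genes tested. These counts include Tdgf1, which was chosen on this contrast. Without the 10 genes, 12 were higher and 19 lower of 31, 5 had an unadjusted p under 0.05 and the median was -0.33. In EPI 0 of 40 were called (24 higher, 16 lower, median 0.52 against 0.04 over all genes), and in PrE 0 of 42 (25 higher, 17 lower, median 0.22 against 0.03). At an unadjusted p under 0.05 were 3 list genes in EPI and 4 in PrE, against 570 of 12298 and 545 of 11765 genes. DESeq2 called 2 list genes in the ICM (Smurf2 and Tdgf1, lower), against 0.848% of all genes. It called 1 in EPI (Eomes, higher), against 1.52%, and 2 in PrE (Nanog lower, Zfyve9 higher), against 1.33%. limma-trend called Tdgf1 in the ICM, where it called 0.0163% of genes, and 0 in EPI and PrE. The 2 calls of Tdgf1 are those of the contrast it was chosen on.

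List genes were called by edgeR in the MUT comparisons of EPI against PrE and of PrE against ICM. There it called 1.65% and 0.507% of all genes. Higher in MUT EPI than in MUT PrE, beside Gdf3, were Nanog (log2 fold change 7.76, SE 0.55, edgeR adjusted p = 1.85e-04), a pluripotency factor and target of the pathway, and Otx2 (8.34, SE 0.94, adjusted p = 0.00234), a homeobox factor of the epiblast. Lower was Hspa5 (-2.27, SE 0.45, adjusted p = 0.0443), the endoplasmic reticulum chaperone that also binds Cripto at the cell surface. Nanog is 1 of the 9 EPI markers that were set against the lineage labels, and Gdf3 and Tdgf1 are on the full marker list. Differences of these genes between the labels, called or not, are therefore not separate support for the pathway. In MUT PrE against MUT ICM, Hspa5 was higher (2.25, SE 0.37, adjusted p = 0.0237) and Nanog lower (-6.08, SE 0.52, adjusted p = 2.78e-04). In MUT EPI against MUT ICM, edgeR called 0 of 41 list genes, DESeq2 4 (against 3.42% of all genes) and limma-trend 4 (against 1.9%). Of the 41, 8 had an unadjusted p under 0.05, against 948 of 11733 genes. The limma-trend calls and the 8 include Tdgf1, chosen on the ICM values. In WT EPI against PrE, edgeR called 0 of 42, DESeq2 3 (against 5.71%) and limma-trend 0. Of the 42, 8 had an unadjusted p under 0.05, against 1190 of 12733 genes. In WT EPI against ICM, edgeR and DESeq2 called 0 of 43 and limma-trend 14 (against 29%). Of the 43, 4 had an unadjusted p under 0.05, against 1966 of 13972 genes. In WT PrE against ICM, edgeR called 0 of 44 and DESeq2 and limma-trend 7 each (against 9.08% and 15.7%). Of the 44, 9 had an unadjusted p under 0.05, against 1954 of 13190 genes. The limma-trend calls and the 9 include Tdgf1.

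Levels can be set side by side between genes only per length of transcript, and here per kilobase of merged exons. In WT ICM, Tdgf1 had 653 ± 110 CPM per kilobase, Gdf3 118 ± 34.8, Lefty2 38.9 ± 25.5 and Smad2 5.62 ± 3.70 (SD, n = 5). The remaining 6 genes had 5.59 or less, in the order Lefty1, Smad7, Furin, Nodal, Acvr2b and Acvr1b, and neighbours in that order differed by less than the larger of their SDs. In MUT ICM, Tdgf1 had 94.0 ± 64.1 and Gdf3 51.3 ± 29.7 CPM per kilobase, a gap smaller than the SD of Tdgf1. The library method is unknown here, so reads may not scale with length.

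The genes most like Tdgf1 were ranked by Spearman correlation of log2(CPM + 1) over the 24 sums, which share depth and lineage, among 13193 protein-coding genes. The 10 highest were Tet1 (rho 0.89), Icam1, Adat2, Acadm, Dppa2, Ccdc160, Dnajc7, Aqp3, Gdf3 (rho 0.77, rank 9) and Cdc5l. Tet1 encodes an enzyme that oxidises methylated cytosine, and Dppa2 a chromatin protein of pluripotent cells. Tet1 averaged 504 CPM in MUT EPI, 490 in WT EPI, 64.5 in MUT PrE, 205 in WT PrE, 240 in MUT ICM and 490 in WT ICM. The other 8 genes of the pathway ranked from 3307 (Lefty2, rho 0.23) to 12340 (Furin, rho -0.43).

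Over the 64 WT ICM cells, among 7400 genes found in at least 50% of them, the 5 nearest to Tdgf1 were Prps1 (rho 0.75), Ywhaq (0.66), Lap3 (0.63), Dppa2 (0.62) and Rnf4 (0.62). Over the 55 MUT ICM cells the same genes had 0.45, 0.23, 0.12, 0.32 and -0.04. Cells differ in depth within each set. Of the other genes of the pathway, 5 were found in enough WT cells to be ranked. Gdf3 had a rho of 0.26 over the MUT cells and 0.34 over the WT cells, and Lefty2 0.13 over the MUT cells and -0.25 over the WT cells. Smad2 had 0.05 over MUT and 0.02 over WT cells, Smad7 -0.11 over both, and Furin -0.18 over MUT and -0.13 over WT cells.

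Sequence shared with other loci bears on 3 of the genes. The processed pseudogene Tdgf1-ps1 shares 50.9% of its 50-base stretches with Tdgf1, and its counts were 2.66% to 8.16% of those of Tdgf1 (median 4.39%) over the 24 sums. In the ICM Tdgf1-ps1 averaged 8.30 CPM in MUT and 73.7 CPM in WT, the same direction as Tdgf1. Of the 50-base stretches of Lefty1, 17.9% occur in Lefty2, so reads of these paralogs are uncertain to that extent.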

How the data were processed

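Single cells of mouse ICM, EPI and PrE were sequenced; 171 cells were used, each 1 sample. The deposited table holds raw counts of reads per gene. Per the submitters' processing notes, the authors used STAR, HTSeq and the mouse build mm10. Versions, the strand setting and the library method were not stated, so overlapping, antisense and pseudogene reads may be shared. Without molecular identifiers, PCR copies count as reads, so limits from a count of 0 (3 counts) cover counting error only.

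Gene names and exon lengths came from GENCODE vM21 of the same build; 49412 rows matched and 259 others held 0.0101% of counts. Promoters came from RefSeq (GRCm38.p6); chromosome 18 was left out, and Gdf3, Lefty1 and Lefty2 had no entry. The first number in a title after the genotype was read as the embryo. No pair of cells had identical counts, no cell was removed, and doublets were not searched for. Labels do not say whether embryos of a group came from separate litters, so p-values measure the spread between these embryos.

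Counts were summed per embryo and lineage. The groups of a comparison alone entered its fit, in edgeR 4.0.16 under R 4.3.3 (glmQLFit, glmQLFTest). Scaling was by TMM, and filterByExpr kept genes at a minimum count of 10, with Benjamini-Hochberg adjustment over all genes tested and a threshold of 0.05. CPM of sums is TMM-scaled over the 24 sums, and CPM of a cell uses the cell's own total. The SE restates the test, as the log2 fold change over the square root of F, and the interval is 1.96 SE on each side. The fit was tested on simulated counts for MUT against WT in ICM and in EPI and for EPI against PrE in WT; it called few of the genes given a known change in the first pair and none in WT, so the absence of a call says little. EPI and PrE of a number come from the same embryo, which pairs them; their deviations from group means correlated at 0.0421 to 0.144 across 16521 genes.

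Genes named are Stat3, the 10 genes, the receptor Acvr2a, pathway list genes past the threshold, the 10 nearest to Tdgf1 over sums and the 5 nearest over WT ICM cells. The members, the pathway list, the marker lists and the tests were chosen with earlier results of these data known. Alternatives were DESeq2's size factors, keeping genes of low count, DESeq2 1.42.0 itself, limma-trend (limma 3.58.1) on embryo means of log2(CPM + 1), removal of 7 cells of low quality (5 MUT and 2 WT ICM cells, by 3 median absolute deviations), embryo sex, the title letter, a replicate block and each embryo left out. Tables and figures used Python 3.11.15, numpy 2.4.6, pandas 2.3.3, scipy 1.17.1 and matplotlib 3.10.9.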

Additional observations from a re-analysis of the deposited data

Results flagged for a closer look

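Within groups of 4 or 5 embryos, 40 sets of values were searched for an embryo far from the others. In 7 of them, the gap of an embryo to its nearest neighbour was large against the range of the group. The limit used flags about 5% of groups by chance only where values are normally distributed. The CPM values were not transformed, and several of those flagged are near the floor or carried by few cells. The 7 flags therefore cannot be set against that rate and show no excess over chance. Tdgf1 had 94.4 CPM in MUT PrE embryo 5, above the other MUT PrE embryos, and 1 cell of that embryo (442 CPM) carried most of it. Lefty2 had 1646 CPM in MUT EPI embryo 4, and 35.8 CPM in MUT ICM embryo 24. Nodal had 4.66 CPM in MUT ICM embryo 18. Acvr1b had 13.8 CPM in MUT ICM embryo 10 and 9.87 CPM in WT ICM embryo 13. Acvr2b had 32.6 CPM in MUT ICM embryo 24.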

How the results depend on the processing

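Of 37 fold changes of the genes described, 32 kept their sign in every alternative run. Tdgf1 in MUT against WT reversed to 0.10 in EPI and 0.17 in PrE with the title letter, and E3.75 EPI against E3.5 ICM in WT reversed to 0.38 for Tdgf1 and 1.04 for Gdf3 under limma-trend. That method weights cells equally and moved the median of all genes to between 0.54 and 0.68 in the 4 stage comparisons. With a replicate block on the embryo number, which no label ties across genotypes, Tdgf1 in MUT against WT became -1.47 in EPI and -6.52 in PrE. Lefty2 in MUT against WT EPI became -2.03 with that block, and ranged from -0.58 to 2.11 with 1 embryo left out, the lowest without MUT embryo 4. Over all 109 fold changes of the 10 genes, 46 changed sign in at least 1 alternative, and 0 of these were called. Genes called in MUT against WT ICM were 3 with no filter (1 of the 10, Tdgf1), 104 with DESeq2 (1), 2 with limma-trend (1), 1 without cells of low quality, and 0 to 1 with an embryo left out (0 to 1). In EPI they were 187 with DESeq2, and in PrE 157 with DESeq2 and 217 with embryo sex. For EPI against PrE in MUT they were 631 with DESeq2 and 321 with limma-trend (3 of the 10 each), 74 with the replicate block (0), and 71 to 91 with an embryo left out (0 to 1). In WT they were 7 with DESeq2's size factors, 32 with no filter, 727 with DESeq2, 7 with limma-trend, 0 with the replicate block and 0 with any embryo left out. For EPI against ICM they were, in MUT, 22 with no filter, 401 with DESeq2 (1), 223 with limma-trend (2) and 0 to 17 with an embryo left out, and in WT 85, 1069, 4048 (2) and 0 to 162. For PrE against ICM they were, in MUT, 108 with no filter, 557 with DESeq2 (2), 630 with limma-trend (2) and 14 to 169, and in WT 118, 1198 (1), 2071 (2) and 0 to 42. The genotype differences gave 333 and 501 genes with DESeq2. The cause of these shifts was not tested. The replicate block changed no other call among the 10 genes. Sums of 1 cell, 3 to 5 embryos a group and levels of Nodal, Acvr1b and Acvr2b near 0 limit what could be detected.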
